A study of Mus musculus with 6 samples.

Results

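Transcript levels of 10 brain endothelial genes (Cldn5, Pecam1, Cdh5, Flt1, Kdr, Tek, Tie1, Slco1c1, Abcb1a and Esam) were described in dentate neuroepithelium of mice with and without a floxed Sox11, the gene of a SoxC family transcription factor. The genes were taken by symbol from a table of 35274 genes. All 10 were found in it, and all 10 were among the 14518 genes with a mean TPM of at least 1 that were tested. TPM (transcripts per 1000000) allows for the length of each transcript and gives every library the same total, so levels of different genes can be compared.

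Poly(A) RNA was sequenced from tissue labelled embryonic day 14. The 3 genotypes, with 2 libraries each, were wild type, heterozygous (SOX11f/+) and homozygous (SOX11f/f) for the floxed allele, which the labels also call haplodeficient and homodeficient. The sources used here name no Cre line, so the cells in which Sox11 was removed are not known from them. Whether each library was a separate embryo or a pool is not stated either, and p-values cover only the variation among these libraries, part or all of which may be technical. The table keeps no read depth, and the depth of each library is unknown. Sox11 was at 191.93 and 130.18 TPM in the wild type libraries, at 56.1 and 50.07 TPM in the heterozygous ones and at 5.23 and 5.06 TPM in the homozygous ones, the order that the labels give. Gfap, an astrocyte gene of mature brain, was at 268 to 576 TPM, and Hbb-y, an embryonic globin gene, was listed at 0 in all 6 libraries. The choroid plexus gene Ttr was at 11259 TPM in heterozygous replicate 1 and at 6421 TPM in homozygous replicate 1, against 184 TPM in homozygous replicate 2 and 2.04 to 4.44 TPM in the other libraries.

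Endothelial cells line the blood vessels that grow into the embryonic neural wall. Ingrowth is driven by vascular endothelial growth factor (VEGF) from neural tissue, which acts on the receptors Kdr and Flt1, while the angiopoietin receptors Tek and Tie1 act in the maturation of vessels. In brain, these cells become a barrier, sealed by tight junctions that hold Cldn5 and equipped with carriers and efflux pumps such as Slco1c1 and Abcb1a. In bulk tissue, fewer endothelial cells and less RNA per endothelial cell cannot be told apart.

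Promoter windows, the 250 bases before the transcription start in RefSeq on GRCm38.p6, were found for 7 of the 10 genes. Of these, 4 are shown because they carry the contrast described below: Cldn5, Tie1 and Tek varied together from library to library, and Slco1c1 did not follow them. Capitals mark GGAAG, the core of ETS factor motifs, and ACAAAG and ACAAT, cores of SOX factor motifs, on either strand (none of these motifs overlapped another kind in the windows shown).
Cldn5 (chr16:18776597-18776846, plus strand): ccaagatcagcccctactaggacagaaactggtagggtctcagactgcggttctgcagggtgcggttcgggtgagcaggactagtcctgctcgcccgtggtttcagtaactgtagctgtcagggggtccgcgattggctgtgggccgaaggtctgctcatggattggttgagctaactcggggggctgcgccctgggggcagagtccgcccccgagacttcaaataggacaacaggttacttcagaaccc
Tie1 (chr4:118489850-118490099, minus strand): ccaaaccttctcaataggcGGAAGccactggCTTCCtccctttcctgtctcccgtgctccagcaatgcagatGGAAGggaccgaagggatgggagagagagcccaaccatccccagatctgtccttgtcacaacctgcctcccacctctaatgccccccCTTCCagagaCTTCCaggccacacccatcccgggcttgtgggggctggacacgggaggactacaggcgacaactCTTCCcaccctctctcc
Tek (chr4:94739039-94739288, plus strand): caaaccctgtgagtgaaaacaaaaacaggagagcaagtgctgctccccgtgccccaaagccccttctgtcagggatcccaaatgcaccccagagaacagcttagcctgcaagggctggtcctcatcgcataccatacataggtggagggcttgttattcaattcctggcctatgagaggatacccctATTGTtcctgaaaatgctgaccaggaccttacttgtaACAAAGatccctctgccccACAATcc
Slco1c1 (chr6:141524104-141524353, plus strand): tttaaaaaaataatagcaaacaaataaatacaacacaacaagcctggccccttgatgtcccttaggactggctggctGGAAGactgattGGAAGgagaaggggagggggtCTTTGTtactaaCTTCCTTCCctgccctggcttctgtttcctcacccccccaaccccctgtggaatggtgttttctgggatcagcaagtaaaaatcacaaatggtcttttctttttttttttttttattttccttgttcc

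GGAAG stood in the windows of 5 of the 7 genes, against 64.1% of 32536 windows of the same length in the RefSeq table. ACAAAG stood in 3 of the 7 (16.5% of all windows), ACAAT in 1 of the 7 (27.4%), and the GATA motif AGATAA in 0 of the 7 (9.97%). The window of Tie1 held 6 copies of GGAAG, that of Slco1c1 held 4 copies of GGAAG and 1 of ACAAAG, that of Tek held 1 copy of ACAAAG and 2 of ACAAT, and that of Cldn5 held none of these motifs. A match of letters describes the window and is not a binding site. The RefSeq starts used for the windows can differ from the gene coordinates given below. The window of Tie1 lies partly within that gene, which ends at chr4:118490061. That of Abcb1a ends at chr5:8567090, well before its gene start at chr5:8660077. For both genes the motif counts depend on which start is used.

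All 10 genes were measured above 0 in all 6 libraries, between 2.89 TPM (Abcb1a in wild type replicate 2) and 157.37 TPM (Cldn5 in homozygous replicate 2). By mean TPM over the 6 libraries the order was Cldn5 (112 TPM), Slco1c1 (77.8), Esam (20.1), Kdr (15.6), Pecam1 (11.9), Cdh5 (11.1), Tie1 (9.54), Tek (6.54), Flt1 (6.39) and Abcb1a (4.22). Of the tested genes, 90.0% had a lower mean TPM than Cldn5, 84.8% a lower one than Slco1c1 and 15.2% a lower one than Abcb1a. The gap from Slco1c1 to Esam exceeded the spread between libraries, since the lowest Slco1c1 value (62.86 TPM) lay above the highest Esam value (26.18 TPM). The ranges of neighbours from Esam down to Abcb1a overlapped, as did those of Cldn5 and Slco1c1.

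**Figure D1:**
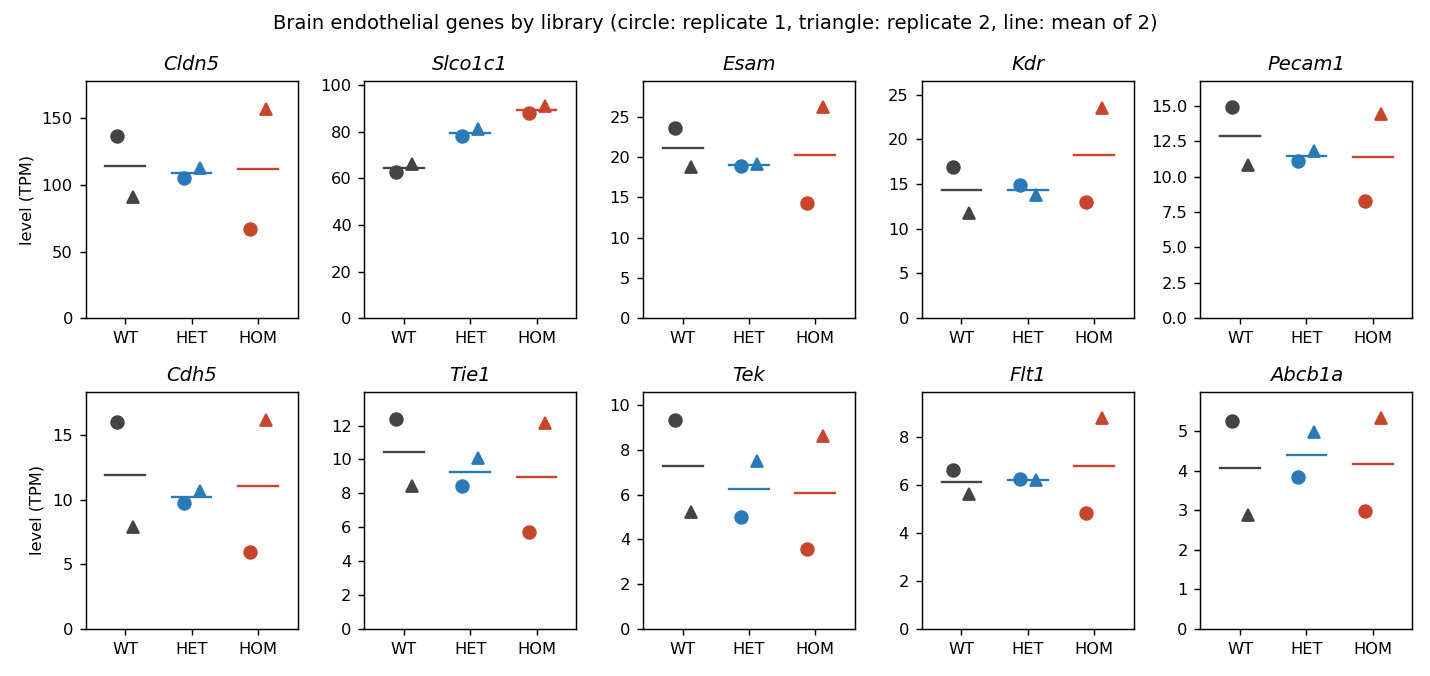
TPM of each of the 10 brain endothelial genes (linear axes from 0, 1 panel per gene) by genotype, with a circle for replicate 1, a triangle for replicate 2 and a line at the mean of the 2 libraries. Wild type points of Slco1c1 sit at 62.86 and 65.96 TPM, below its homozygous points at 87.82 and 91.03 TPM, while in the other 9 panels the values of the genotypes overlap.

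Junction and adhesion genes did not separate the genotypes. Cldn5 (chr16:18776847-18778262), the main claudin of brain endothelial tight junctions, was at 136.72 and 91.39 TPM in wild type, 104.93 and 112.64 TPM in heterozygous and 66.68 and 157.37 TPM in homozygous libraries. The homozygous libraries held both the lowest and the highest value, 2.36-fold apart, and the genotypes overlapped. Wild type libraries had a mean of 114 ± 32.1 TPM, heterozygous ones 109 ± 5.45 TPM and homozygous ones 112 ± 64.1 TPM (SD, n = 2 each). In limma, the log2 fold change of Cldn5 on the log2(TPM + 1) scale, which understates the change of low genes, was -0.12 ± 0.38 (SE) for homozygous against wild type (95% interval -1.03 to 0.78, Benjamini-Hochberg adjusted p = 0.881).

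Esam (chr9:37528078-37538319), an immunoglobulin-like adhesion molecule of endothelial contacts, was at 23.57 and 18.78 TPM in wild type, 18.9 and 19.1 TPM in heterozygous and 14.3 and 26.18 TPM in homozygous libraries. Pecam1 (chr11:106654217-106750628), the adhesion molecule also called CD31, was at 14.9 and 10.84 TPM in wild type, 11.09 and 11.79 TPM in heterozygous and 8.29 and 14.46 TPM in homozygous libraries. Cdh5 (chr8:104101625-104144511), the cadherin of endothelial adherens junctions, was at 15.98 and 7.86 TPM, then 9.78 and 10.67 TPM, then 5.94 and 16.17 TPM in the same order of genotypes. For all 3 genes, homozygous replicate 1 was the lowest library and the heterozygous values lay between the extremes of both other genotypes. The log2 fold change for homozygous against wild type was -0.11 for Esam (interval -0.75 to 0.53), -0.20 for Pecam1 (-0.84 to 0.45) and -0.17 for Cdh5 (-1.27 to 0.94), with limma adjusted p of 0.845, 0.716 and 0.868. Cdh5 had the largest fold between replicates of the 10 genes, 2.72 in homozygous libraries.

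The VEGF receptors had nearly the same order of libraries. Kdr (chr5:75932827-75978458), the main signalling receptor for VEGF in endothelium, was at 16.86 and 11.76 TPM in wild type, 14.88 and 13.8 TPM in heterozygous and 13.03 and 23.51 TPM in homozygous libraries. Flt1 (chr5:147561604-147726011), which binds VEGF tightly and limits its action on Kdr, was at 6.63 and 5.64 TPM, then 6.23 and 6.2 TPM, then 4.82 and 8.79 TPM. Homozygous replicate 2 was the highest library for both, and the genotypes overlapped in every comparison. The log2 fold change for homozygous against wild type was 0.30 ± 0.29 (SE) for Kdr (interval -0.39 to 0.98, limma adjusted p = 0.596) and 0.08 ± 0.27 for Flt1 (-0.56 to 0.73, limma adjusted p = 0.884). The ratio of Kdr to Flt1 TPM stayed between 2.09 and 2.70 in the 6 libraries.

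The angiopoietin receptors followed the same libraries. Tek (chr4:94739289-94874976), the receptor that binds angiopoietins, was at 9.34 and 5.22 TPM in wild type, 4.98 and 7.49 TPM in heterozygous and 3.57 and 8.61 TPM in homozygous libraries. Tie1 (chr4:118471191-118490061), its related partner receptor, was at 12.39 and 8.46 TPM, then 8.41 and 10.1 TPM, then 5.72 and 12.18 TPM. For both, wild type replicate 1 was the highest library and homozygous replicate 1 the lowest. The log2 fold change for homozygous against wild type was -0.28 for Tek (interval -1.27 to 0.72, limma adjusted p = 0.741) and -0.26 for Tie1 (-1.07 to 0.55, limma adjusted p = 0.700). The ratio of Tek to Tie1 TPM was 0.592 to 0.754, with the lowest value in heterozygous replicate 1.

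The 2 transport genes parted. Abcb1a (chr5:8660077-8748575), the drug efflux pump P-glycoprotein of the barrier, was at 5.26 and 2.89 TPM in wild type, 3.83 and 4.99 TPM in heterozygous and 2.99 and 5.33 TPM in homozygous libraries, with overlap throughout. Its log2 fold change was 0.12 for heterozygous (limma adjusted p = 0.881) and 0.03 for homozygous against wild type (interval -0.77 to 0.82, limma adjusted p = 0.972). Abcb1a is 87.18% identical to Abcb1b over 4032 transcript bases and shares 553 exon bases with Gm42686 on the opposite strand, so its values are uncertain where reads were split. Abcb1b itself was lower, at 2.04 to 3.67 TPM.

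Slco1c1 (chr6:141524368-141570177), a carrier of thyroxine known from brain endothelium, choroid plexus epithelium and astrocytes, was at 62.86 and 65.96 TPM in wild type, 78.14 and 80.97 TPM in heterozygous and 87.82 and 91.03 TPM in homozygous libraries. Every heterozygous value lay above both wild type values and below both homozygous values, and replicates differed by at most 1.05-fold. The means were 64.4 ± 2.19, 79.6 ± 2.001 and 89.4 ± 2.27 TPM (SD, n = 2 each). In limma the log2 fold change was 0.30 ± 0.09 (SE) for heterozygous against wild type (95% interval 0.09 to 0.51, adjusted p = 0.286). For homozygous against wild type it was 0.47 ± 0.09 (interval 0.25 to 0.68, limma adjusted p = 0.0914), and for homozygous against heterozygous 0.17 ± 0.09 (interval -0.05 to 0.38, limma adjusted p = 0.9999). The linear trend was 0.23 ± 0.04 per floxed allele (interval 0.13 to 0.34, limma adjusted p = 0.116). None of these passed the adjusted threshold of 0.05. Without heterozygous replicate 1 the trend of Slco1c1 had a limma adjusted p of 0.0401, with the same slope.

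Strictly higher values with each further floxed allele in all libraries, a pattern looked for after the values of Slco1c1 were seen, held for 1.88% of tested genes (273 genes). Both wild type libraries lay below all 4 libraries with a floxed allele in 13.3%. Without overlap in either direction were 46.0% of tested genes for heterozygous against wild type, 54.3% for homozygous against wild type and 29.1% for homozygous against heterozygous. Of the 10 endothelial genes, Slco1c1 alone was without overlap, in all 3 comparisons.

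At an adjusted p of 0.05, 0 of 10 genes passed for heterozygous against wild type, where limma called 5 of all tested genes (0.0344%). For homozygous against wild type, 0 of 10 passed, against 6 of all genes (0.0413%). For homozygous against heterozygous and for the trend, 0 of 10 passed, against 2 of all genes in each (0.0138%). With so few calls over all genes, a count of 0 among 10 says little about these genes. At an unadjusted p under 0.05, Slco1c1 was the 1 gene of 10 in heterozygous against wild type (14.1% of all tested genes), in homozygous against wild type (18.1%) and in the trend (19.0%), and 0 of 10 passed in homozygous against heterozygous (2.05%). The median log2 fold change of the 10 genes was -0.08, -0.12 and -0.05 in the 3 pairwise comparisons and -0.06 in the trend, beside -0.06, -0.04, 0.01 and -0.02 for all tested genes. For homozygous against wild type the median turned to 0.41 without homozygous replicate 1 and was -0.54 without homozygous replicate 2.

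**Figure D2:**
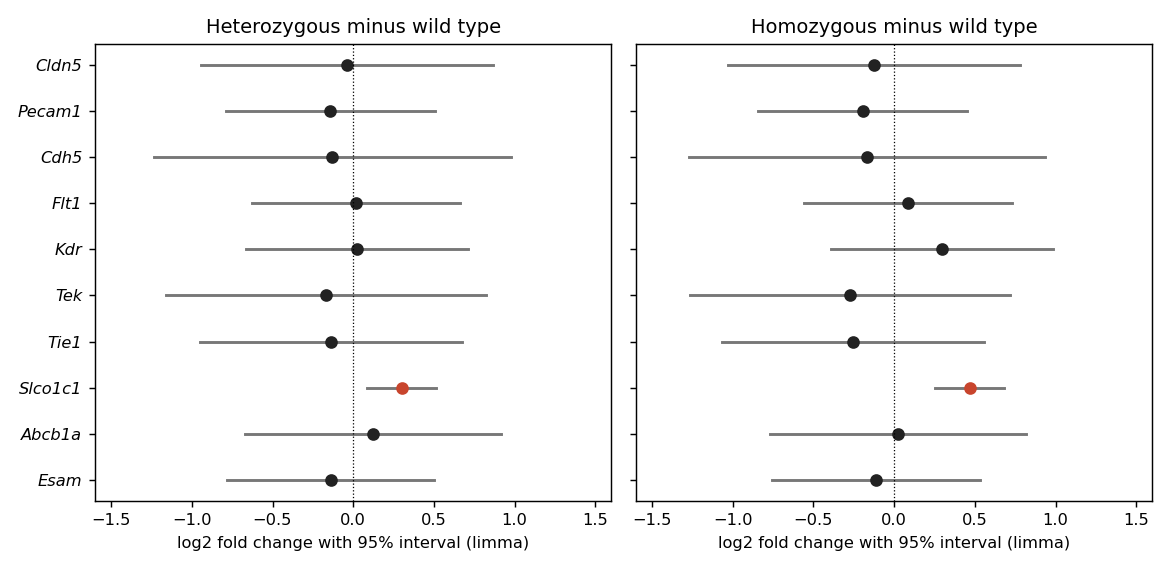
Log2 fold change of each gene on the log2(TPM + 1) scale with its 95% limma interval, for the comparisons of floxed genotypes with wild type. The interval of Slco1c1 lies above 0 for homozygous against wild type (0.25 to 0.68), and those of the other 9 genes span 0 and are wider, that of Cdh5 reaching from -1.27 to 0.94.

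The larger differences of the other 9 genes lay between replicates of 1 genotype. For the 9 genes other than Slco1c1, wild type replicate 1 and homozygous replicate 2 were the 2 highest libraries in 9 of 9, an order that 10.3% of all tested genes had. Homozygous replicate 1 was lowest in 7 of 9 (14.2% of all tested genes), and wild type replicate 2 was lowest for the other 2, Kdr and Abcb1a. The summed level of the 9 genes was 241.65 and 162.84 TPM in wild type, 183.03 and 196.78 TPM in heterozygous and 125.34 and 272.6 TPM in homozygous libraries. The homozygous replicates thus held the lowest and the highest sum. Most of each sum was Cldn5, at 66.68 and 157.37 TPM in these 2 libraries. These orders were described after the values were seen, and the 9 genes are not independent of each other.

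**Figure D3:**
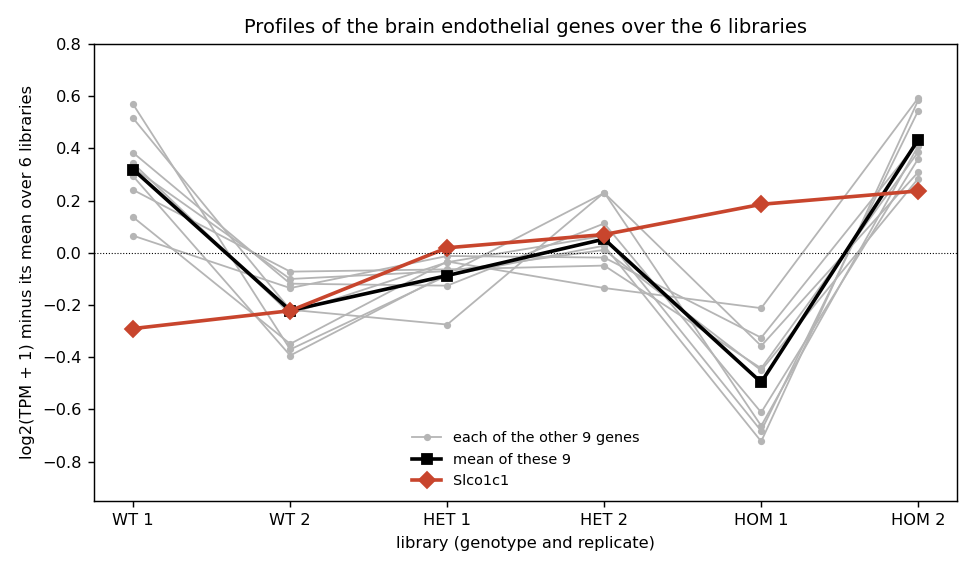
Level of each gene as log2(TPM + 1) minus its own mean over the 6 libraries, by library (lines join the points of 1 gene and carry no order of replicates). The mean of the 9 genes other than Slco1c1 is 0.32 in wild type replicate 1, 0.43 in homozygous replicate 2 and -0.50 in homozygous replicate 1, whereas Slco1c1 goes from -0.29 and -0.22 in wild type to 0.19 and 0.24 in homozygous libraries.

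Levels relative to Pecam1 show how closely single genes followed it. Cldn5 was 8.04 to 10.9 times Pecam1 in the 6 libraries, with the extremes in the homozygous replicates. Abcb1a was 0.267 to 0.423 times Pecam1. Kdr was 1.13 and 1.08 times Pecam1 in wild type, 1.34 and 1.17 times in heterozygous and 1.57 and 1.63 times in homozygous libraries, so for this ratio the genotypes were in order without overlap. Slco1c1 was 4.22 and 6.08 times Pecam1 in wild type, 7.05 and 6.87 times in heterozygous and 10.6 and 6.30 times in homozygous libraries, and its genotypes with a floxed allele overlapped. Esam was 1.58 to 1.81 times and Cdh5 0.717 to 1.12 times Pecam1, neither in the order of floxed alleles. Kdr was in that order against Pecam1 but not against Flt1. Its heterozygous ratios to Flt1 (2.39 and 2.23) fell between the wild type ones (2.54 and 2.09). Both homozygous ratios to Flt1 (2.70 and 2.67) lay above all others. How often a ratio of other genes is in the order of floxed alleles was not counted. These ratios were picked after the values were seen and were not tested.

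Likeness to the mean profile of the 10 genes was measured as the root mean square difference of centred log2(TPM + 1) values over the 6 libraries, where the mean profile itself spanned 0.84. Of the 10 genes, Esam (0.076) and Pecam1 (0.080) were closest to it, and Cdh5 (0.20) and Slco1c1 (0.35) farthest. Among the other tested genes the 8 closest were Slc40a1 (0.045), Stc2 (0.053), Tubb6 (0.055), Egfl7 (0.061), Esyt1 (0.071), Ramp2 (0.077), Pik3r6 (0.080) and Abcc9 (0.081). Egfl7, a secreted endothelial protein, was at 49.05 and 37.3 TPM in wild type, 37.01 and 41.96 TPM in heterozygous and 28.19 and 56.26 TPM in homozygous libraries. Ramp2, the adrenomedullin co-receptor, was at 57.05 and 43.42, then 46.47 and 52.17, then 41.82 and 67.32 TPM. Abcc9, a potassium channel subunit of pericytes, was at 4.27 and 3.25, then 3.26 and 3.9, then 2.57 and 4.59 TPM. All 8 closest genes, these 3 included, were highest in homozygous replicate 2 and lowest in homozygous replicate 1, as were Esam and Cldn5. The 8 were chosen for likeness to this profile, so the shared order is not a separate result.

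Other pan-endothelial genes, 28 tested of 30 listed, had this order of libraries in part. Wild type replicate 1 and homozygous replicate 2 were the 2 highest in 16 of 28 (10.3% of all tested genes), and homozygous replicate 1 was lowest in 16 of 28 (14.2%). Their summed level was 332.13 and 247.63 TPM in wild type, 268.18 and 282.93 TPM in heterozygous and 206.1 and 344.33 TPM in homozygous libraries. No gene of the list passed limma's adjusted threshold in any of the 4 comparisons, and unadjusted p under 0.05 was reached by 0 of 28 for heterozygous and 2 of 28 for homozygous against wild type (14.1% and 18.1% of all tested genes). The median log2 fold change for homozygous against wild type was -0.05. The list's smallest p belonged to Podxl, a sialomucin of the endothelial surface that other epithelia also make, at 30.3 and 21.36 TPM in wild type, 20.5 and 15.54 TPM in heterozygous and 13.18 and 14.33 TPM in homozygous libraries (trend -0.42 per allele, limma adjusted p = 0.124). Palmd was at 31.08 and 27.84, then 24.51 and 24.14, then 20.35 and 22.52 TPM (trend -0.22, limma adjusted p = 0.137). Both were lower in every library with a floxed allele than in wild type, as were 2 of the 28 genes in all. This position was not counted over all tested genes. Without overlap in either direction were 46.0% of tested genes for heterozygous and 54.3% for homozygous against wild type. Sox7, an endothelial transcription factor, and Vwf, the von Willebrand factor, had their smallest p for homozygous against heterozygous, at log2 fold changes of -0.55 and 0.67 (limma adjusted p = 0.9999 for both).

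Barrier transporters and Wnt barrier genes, all 31 of them tested, had 0 calls in any of the 4 comparisons. Unadjusted p under 0.05 was reached by 6 of 31 for heterozygous and 5 of 31 for homozygous against wild type (14.1% and 18.1% of all tested genes), and the medians were 0.0057 and -0.03. Slc2a1, the glucose transporter of barrier endothelium and also of other cells, was at 26.31 and 19.72 TPM in wild type, 46.27 and 28.44 TPM in heterozygous and 36.75 and 38.07 TPM in homozygous libraries. Mfsd2a, a lipid transporter that keeps vesicle transport low in brain endothelium, was at 22.41 and 22.32, then 26.54 and 26.01, then 23.66 and 33.72 TPM. For both, as for Slco1c1, the wild type libraries were the 2 lowest, which held for 6 of the 31 genes and 13.3% of all tested genes. More genes of the list had the order of Cldn5 and Pecam1. Wild type replicate 1 and homozygous replicate 2 were the 2 highest in 13 of 31 (10.3% of all tested genes). Homozygous replicate 1 was lowest in 16 of 31 (14.2%). Slco1a4, an organic anion carrier related to Slco1c1, was at 10.53 TPM in heterozygous replicate 1 and 12.03 TPM in homozygous replicate 1, the 2 libraries with the most Ttr, and at 0.92 to 2.55 TPM in the others. Slco1c1 was at 80.97 TPM in heterozygous replicate 2, where Ttr was at 4.44 TPM, and at 78.14 TPM in heterozygous replicate 1, where Ttr was at 11259 TPM. Without the 2 libraries with the most Ttr, the log2 fold change of Slco1c1 for homozygous against wild type was 0.49 (limma adjusted p = 0.187), a fit with 1 heterozygous and 1 homozygous library in which only the 2 wild type libraries give the spread. The part of choroid plexus RNA in the Slco1c1 values was not tested.

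Of that list, the genes with the smallest p were Lrp8, Lef1, Pltp and Slc6a6. Lrp8, a reelin receptor that neurons also make, was at 154.07 and 127.62 TPM in wild type, 105.47 and 97.55 TPM in heterozygous and 93.79 and 94.75 TPM in homozygous libraries (log2 fold change for homozygous against wild type -0.57, limma adjusted p = 0.101). Lef1, a transcription factor at the end of the Wnt pathway, was at 23.11 and 14.49, then 10.72 and 9.65, then 9.34 and 10.21 TPM (-0.84, limma adjusted p = 0.150). Pltp, a phospholipid transfer protein, was at 34.23 and 18.67, then 125.44 and 43.17, then 94.37 and 81.84 TPM (1.76, limma adjusted p = 0.156). Slc6a6, the taurine transporter, was at 103.53 and 83.66, then 58.25 and 74.43, then 71.75 and 83.9 TPM (-0.49 for heterozygous against wild type, limma adjusted p = 0.311). Pltp was higher in every library with a floxed allele than in wild type (13.3% of all tested genes). Lrp8 and Lef1 were lower in every such library, a position of 2 of the 31 genes that was not counted over all tested genes. Without overlap in either direction were 46.0% of tested genes for heterozygous and 54.3% for homozygous against wild type. Slc6a6 was highest in wild type replicate 1 and homozygous replicate 2, as Cldn5 and Pecam1 were.

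Tight junction partners, 14 tested of 15 listed, had medians of 0.34 and 0.42 for heterozygous and homozygous against wild type and 0 calls, with 2 of 14 at an unadjusted p under 0.05 in each (14.1% and 18.1% of all tested genes). Wild type libraries were the 2 lowest in 6 of 14 (13.3% of all tested genes), and the order of the endothelial genes, with wild type replicate 1 and homozygous replicate 2 highest, held for 1 of 14 (10.3%). Jam2, a junctional adhesion molecule, was at 18.6 and 19.26 TPM in wild type, 28.61 and 25.7 TPM in heterozygous and 24 and 27.44 TPM in homozygous libraries (0.50 for heterozygous against wild type, limma adjusted p = 0.259). Ocln, the tight junction protein occludin, was at 8.11 and 7.07, then 18.79 and 9.99, then 14.97 and 12.54 TPM (0.78, limma adjusted p = 0.324). Cldn3 had a trend of -0.21 (limma adjusted p = 0.272), and F11r a log2 fold change of 0.70 for heterozygous against wild type (limma adjusted p = 0.366). Cldn1, a claudin of choroid plexus and other epithelia, was at 36.85 and 15.79 TPM in the 2 libraries with the most Ttr and at 1.04 to 1.92 TPM elsewhere. Ocln and F11r too were highest in these 2 libraries, and the part of choroid plexus RNA in this list was not tested.

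Ligands and co-receptors of the VEGF and angiopoietin pathways, 10 tested of 12 listed, had 0 calls and medians of -0.10 and -0.01, with 2 and 3 of 10 at an unadjusted p under 0.05 (14.1% and 18.1% of all tested genes). Vegfa, the ligand of Kdr and Flt1, was at 62.16 and 62.74 TPM in wild type, 64.56 and 62.54 TPM in heterozygous and 66.49 and 78.52 TPM in homozygous libraries (trend 0.10, limma adjusted p = 0.330). Vegfb, a ligand of Flt1, was at 54.72 and 59.36, then 68.72 and 70.51, then 71.24 and 68.85 TPM (0.29 for homozygous against wild type, limma adjusted p = 0.192). The co-receptors Nrp1 and Nrp2, which also act as semaphorin receptors of neurons, were lower in every library with a floxed allele. This position, held by 3 of the 10 genes, was not counted over all tested genes. Without overlap in either direction were 46.0% of tested genes for heterozygous and 54.3% for homozygous against wild type. Nrp1 was at 128.31 and 143.32, then 111.83 and 106.85, then 103.41 and 78.28 TPM (trend -0.29, limma adjusted p = 0.124). Nrp2 was at 168.57 and 160.89, then 91.71 and 116.08, then 116.9 and 115.86 TPM (-0.67 for heterozygous against wild type, limma adjusted p = 0.172). Angpt1, the agonist of Tek, was at 48.86 and 32.61, then 32.09 and 30.46, then 30.01 and 39 TPM. Angpt2, its context-dependent antagonist, was low, at 0.69 to 3.55 TPM, and highest in homozygous replicate 2.

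Genes of angiogenic sprouts (13 tested of 16) and of arterial and venous endothelium (10 tested of 13) also had 0 calls in the 4 comparisons. Unadjusted p under 0.05 was reached by 1 and 2 of 13 sprout genes and by 2 and 1 of 10 arterial and venous genes for heterozygous and homozygous against wild type (14.1% and 18.1% of all tested genes). Cxcr4, a chemokine receptor of tip cells and of migrating neurons, was at 174.25 and 123.98 TPM in wild type, 109.65 and 97.97 TPM in heterozygous and 93.75 and 96.99 TPM in homozygous libraries (-0.62 for homozygous against wild type, limma adjusted p = 0.145). Hey2, a Notch target of arterial cells, was at 2.69 and 2.92, then 5.06 and 3.72, then 5.2 and 5.08 TPM (trend 0.35, limma adjusted p = 0.158). Vcam1, an adhesion molecule, had a log2 fold change of 0.52 for heterozygous against wild type (limma adjusted p = 0.316). The remaining genes with the smallest p were Hey1 (trend 0.15), Notch4 (0.44 for heterozygous against wild type) and Efnb2 (0.31 for heterozygous against wild type), with limma adjusted p of 0.320, 0.450 and 0.563.

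Genes of pericytes, the cells that wrap brain capillaries, and of vascular smooth muscle formed 1 list. Of its 16 tested of 19 genes, wild type replicate 1 and homozygous replicate 2 were the 2 highest in 7 (10.3% of all tested genes), and homozygous replicate 1 was lowest in 10 (14.2%). The summed level of this list was 357.55 and 228.63 TPM in wild type, 262.16 and 303.85 TPM in heterozygous and 207.31 and 422.83 TPM in homozygous libraries. Vtn, a matrix protein gene strong in brain pericytes, was at 65.65 and 27.68, then 40.11 and 48.9, then 19.77 and 95.67 TPM. No gene passed the adjusted threshold, and 0 and 2 of 16 had an unadjusted p under 0.05 for heterozygous and homozygous against wild type (14.1% and 18.1% of all tested genes). The smallest p were those of Cspg4 (trend 0.19), Acta2 (0.74), Higd1b (0.36 for heterozygous against wild type) and Pdgfrb (trend 0.19), with limma adjusted p of 0.217, 0.224, 0.488 and 0.423.

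Some marker lists of other cells had the library order of the endothelial genes, and others did not. The 9 tested meningeal and fibroblast genes had wild type replicate 1 and homozygous replicate 2 highest in 8, the order of the endothelial genes and of 10.3% of all tested genes. Their mean of centred log2(TPM + 1) ranked the libraries as that of the 10 brain endothelial genes did, with wider extremes. It was -0.92 in homozygous replicate 1 and 1.12 in homozygous replicate 2, beside -0.43 and 0.41 for the 10 genes. Only the TPM sum of the list, with Crym alone at 196.59 to 656.3 TPM, went another way. This sum was 394.25 and 509.96 TPM for wild type. The heterozygous replicates had 676.25 and 745.88 TPM, and the homozygous replicates 719.31 and 696.6 TPM. Of the 14 microglia and macrophage genes, 0 had wild type replicate 1 and homozygous replicate 2 highest. In 9 of these, both wild type libraries were below every library with a floxed allele, as for Slco1c1 and 13.3% of all tested genes. Their summed level was 239.8 and 277.89 TPM in wild type and 372.08 to 566.07 TPM in the libraries with a floxed allele. The astrocyte list, whose cells are a known site of Slco1c1, summed to 1872 and 2104 TPM in wild type, 3223 and 2921 TPM in heterozygous and 3317 and 3860 TPM in homozygous libraries, and 5 of its 9 genes were lowest in both wild type libraries (13.3% of all tested genes). The choroid plexus list summed to 33.08 and 26.91 TPM in wild type, 11773 and 59.07 TPM in heterozygous and 6773 and 298.6 TPM in homozygous libraries. Pf4, made by megakaryocytes and platelets that also carry Pecam1 and Esam, was at 16.92 and 6.93 TPM in wild type, 9.41 and 12.97 TPM in heterozygous and 4.96 and 29.97 TPM in homozygous libraries, the order of Cldn5 between replicates. Of the 3 tested genes of the megakaryocyte list, Pf4 was the only 1 with wild type replicate 1 and homozygous replicate 2 highest (10.3% of all tested genes). The sum of the megakaryocyte list was lowest in homozygous replicate 1 (27.84 TPM) and highest in homozygous replicate 2 (54.19 TPM). Wild type replicate 1 came next to the highest, at 38.97 TPM. Over its 3 tested genes, the mean of centred log2(TPM + 1) ranked the 6 libraries as that of the 10 brain endothelial genes did. This mean ran from -0.44 in homozygous replicate 1 to 0.49 in homozygous replicate 2. The erythroid list summed to 292.3 to 773.6 TPM. Summed radial glia genes ranged from 3185 to 3960 TPM and summed neuron genes from 3847 to 5611 TPM. The part of these cells in the endothelial values was not tested.

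**Figure D4:**
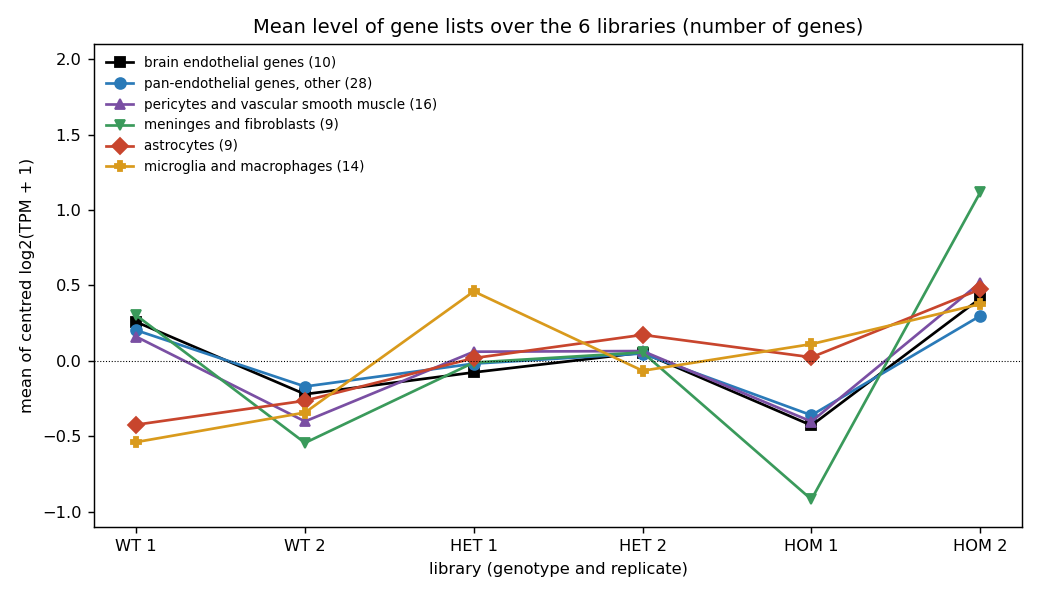
Mean of centred log2(TPM + 1) over the tested genes of each list, by library (lines join the points of 1 list and carry no order of replicates). The pan-endothelial list reaches 0.20 in wild type replicate 1, -0.36 in homozygous replicate 1 and 0.30 in homozygous replicate 2, beside 0.26, -0.43 and 0.41 for the 10 brain endothelial genes, while the astrocyte and microglia lists lie below 0 in both wild type libraries.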

How the data were processed

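RNA abundance in 6 libraries, 2 per genotype, was used as TPM, deposited by the authors as 1 table with Ensembl identifiers and symbols. The sources differ on the pipeline: the design text in the labels has TopHat 2.0.11 for alignment to mm10 and Cufflinks 2.2.1 for RefSeq transcripts, while the tools in the submitters' processing notes are FastQC and RSEM, with mm10 and GRCm38 as builds. How multi-mapping reads were treated is not given in the sources used here. TPM retain no depth, and a very abundant transcript lowers all other values of its library. Gene coordinates came from GENCODE vM21 on GRCm38, matched without identifier version for 34845 of 35274 rows and for all 10 members.

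From the TPM, log2(TPM + 1) was tested with limma 3.58.1 (R 4.3.3) in 1 fit of all 6 libraries, with genotype as the term (3 residual degrees of freedom) or the number of floxed alleles as a linear term (4 residual degrees of freedom), an intensity trend and Benjamini-Hochberg adjustment over 14518 genes at 0.05. The fit was tested on simulated data. The members and lists were chosen with earlier results of these data known. Of each list, up to 4 genes with the smallest unadjusted p over the 4 comparisons were named by rule. The 8 genes outside the members with the most similar profile were also named, skipping symbols made of Gm and digits or ending in Rik. Other list genes were named after their values were seen. Similar transcripts were found with BLAST 2.17.0, and promoter sequences came from RefSeq (GRCm38.p6). Alternatives to the pseudocount, filter, scaling, intensity trend, block and libraries were run.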

Additional observations from a re-analysis of the deposited data

How the results depend on the processing

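Under all 15 alternative settings, 0 of the 10 genes passed limma's adjusted threshold in each pairwise comparison. For the trend over floxed alleles, leaving out 1 library gave 0 to 1 genes, the 1 being Slco1c1 without heterozygous replicate 1 (limma adjusted p = 0.0401). Slco1c1 kept its direction in 59 of 59 values, with a log2 fold change of 0.43 to 0.54 for homozygous against wild type. These values come from the same 6 libraries, in which its genotypes did not overlap. Leaving out libraries or changing the pseudocount, filter, intensity trend or block therefore could not turn its sign. The other 9 genes kept their sign in 442 of 527 values, and 0 of these passed. The median of the 10 genes turned with single libraries: for homozygous against wild type it was -0.54 to 0.41 when 1 library was left out, and for homozygous against heterozygous -0.43 to 0.44, with the positive end reached without homozygous replicate 1. Without the 2 libraries with the most Ttr it was 0.41 for homozygous against wild type and 0.20 for the trend. This 0.41 repeats the value without homozygous replicate 1, since the other library left out, heterozygous replicate 1, does not enter that difference. The cause of these turns was not tested. Leaving out 1 library leaves its genotype with a single library, and leaving out the 2 with the most Ttr does so for both floxed genotypes; a single library is then assumed to vary like the others. With the replicate number as a replicate block, 0 of 10 genes passed, and the medians were -0.08, -0.12, -0.05 and -0.06, which a block cannot move in this balanced design. Deviations of same-numbered libraries correlated at 0.21, -0.09 and 0.35 between genotypes across genes, which is not over 0.1 for every pair, and the sources tie no litter, batch or day to a number, so the libraries were not treated as paired. The count over all tested genes ranged from 1 to 391 for heterozygous against wild type, 3 to 713 for homozygous against wild type, 1 to 45 for homozygous against heterozygous and 0 to 550 for the trend. With a minimum mean of 5 TPM, Abcb1a was not tested. With 2 libraries per genotype, the intervals of the 9 genes other than Slco1c1 allow changes of the size of their replicate spread.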
